A study of Mus musculus with 6 samples.

Results

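The genes described here are Mmp9, 4 Adam proteases (Adam8, Adam10, Adam17 and Adam19) and 3 inhibitors of metalloproteinases (Timp1, Timp2 and Reck), 8 of the 23841 genes in a count table from mouse kidney. They were taken by symbol, and all 8 were found. The panel was chosen by gene family with the difference between the 2 sorted populations in these same libraries already known, Mmp9 being among the largest, so that the levels, fold changes and calls of its members are a description and are not offered as tests. Both populations came from kidneys of naive C57BL/6 wild-type mice and were gated as NK1.1+ NKp46+ CD3- lymphocytes. Type 1 innate lymphoid cells (ILC1), tissue relatives of natural killer cells, were the CD49a+ cells with low to intermediate CD49b. The cells high in CD49b were conventional natural killer (cNK) cells, which circulate and kill target cells. Each population had 3 pools, numbered 1 to 3, and each pool gave 1 RNA sequencing library. The labels give no age, no number of mice per pool and no statement that pools came from separate animals, so the spread below is the spread between these pools.

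Metalloproteinases of the metzincin group cut proteins with a zinc ion held in their active site. Matrix metalloproteinases such as Mmp9 are mostly secreted as inactive precursors and cut matrix proteins, whereas most Adam proteases sit in the cell membrane and release the outer parts of cytokines, receptors and adhesion molecules. The Timp proteins bind the active site of these enzymes outside the cell, and Reck, anchored to the membrane, inhibits several of them. Leukocytes are known to use Mmp9 when they cross basement membranes and Adam proteases when they shed Tnf.

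Library totals ran from 22633440 to 28327265 counts. In CPM, counts scaled to a common library total, a single count came to 0.0353 to 0.0442. The labels were checked against the genes of the gate. Itga1, which encodes CD49a, was at 110 to 185 CPM in ILC1, against 7.09 to 13.7 CPM in cNK. Itga2, which encodes CD49b, was at 10.6 to 24.7 CPM in ILC1, against 76.1 to 160 CPM in cNK. Klrb1c (NK1.1) and Ncr1 (NKp46) overlapped between the populations, as did Ptprc (CD45), and Cd3e did not exceed 4.43 CPM in any library. The highest Cd3d level was 9.54 CPM in ILC1, against 12.8 CPM in cNK, while Cd3g was at 44.2 to 68.1 CPM in ILC1, against 7.59 to 12.1 CPM in cNK. All levels are CPM with TMM scaling, a correction for differences in library makeup, given for single libraries in the order of pools 1, 2 and 3. Fold changes are on the log2 scale, ILC1 divided by cNK, with their standard error (SE) from an edgeR quasi-likelihood fit to the whole table. A gene counts as called where its Benjamini-Hochberg adjusted p in that fit is under 0.05. Over all 16144 genes tested, 4.07% were called higher in ILC1 and 1.69% higher in cNK. Of the 8 members, 7 passed the filter on low counts, 3 were called higher in ILC1 (Mmp9, Adam8 and Adam19) and 1 was called higher in cNK (Reck). Nothing is read from these counts against the background, because the choice of the panel used this contrast.

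Mmp9, or gelatinase B, is a secreted protease that cuts denatured collagen and type IV collagen. It lies on chromosome 2 of GRCm38, 164940780 to 164955850 on the plus strand, and overlaps no other annotated gene. It stood at 219, 126 and 114 CPM in the ILC1 pools and at 1.11, 1.41 and 1.87 CPM in the cNK pools. Every ILC1 library was far above every cNK library, and pool 1 was the highest of the ILC1. The raw counts were 5455, 3690 and 3163 in ILC1 and 31, 31 and 43 in cNK, so that the gene was counted in cNK at a low level in each library. The means were 153 ± 57.5 CPM in ILC1 and 1.46 ± 0.3803 CPM in cNK (SD, n = 3 each), a log2 fold change of 6.71 ± 0.40 (SE), which ranked 11 among the 16144 tested genes in size toward ILC1. By mean level Mmp9 was above 93.6% of tested genes in ILC1 and above 20.7% of them in cNK. In these bulk libraries, a larger share of cells with the transcript and more transcript per cell cannot be told apart.

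**Figure D1:**
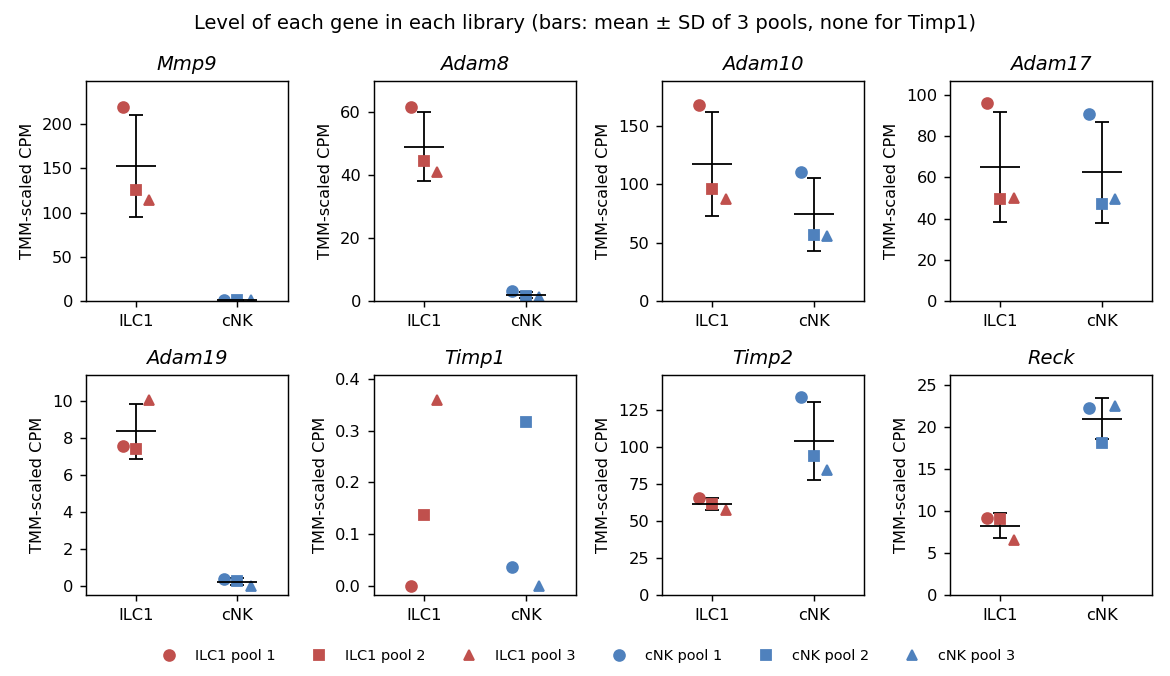
Level of each of the 8 genes in TMM-scaled CPM (vertical axes, each with its own scale) in the 3 ILC1 and 3 cNK libraries. Points are single libraries, with the pool number given by the marker shape, and horizontal bars are means with SD as whiskers, left out for Timp1. Mmp9, Adam8 and Adam19 are near the bottom of their axes in cNK, Timp2 and Reck are lower in every ILC1 library than in any cNK library, and Adam10, Adam17 and Timp1 overlap.

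Adam8 is a membrane protease found mainly on leukocytes (chromosome 7, 139978932 to 139992562, minus strand). It stood at 61.6, 44.4 and 41.0 CPM in the ILC1 pools and at 3.12, 1.73 and 1.301 CPM in the cNK pools. The populations did not overlap, and pool 1 was highest in both. The means were 49.0 ± 11.0 CPM in ILC1 and 2.05 ± 0.9496 CPM in cNK, with a log2 fold change of 4.57 ± 0.39 (SE). An annotated transcript on the opposite strand, Gm16201, shares bases with 1 exon of Adam8 and had 357 counts over the 6 libraries. Whether counting used strand is not given in the sources used here, so reads in that overlap are uncertain.

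Adam19, also called meltrin beta, is a membrane protease known for processing neuregulins (chromosome 11, 46055992 to 46147343, plus strand). Its level was far lower, at 7.55, 7.41 and 10.04 CPM in the ILC1 pools, against 0.358, 0.272 and 0 CPM in the cNK pools. The cNK values rest on 10, 6 and 0 counts, against 188, 217 and 279 counts in ILC1. The ratio of summed counts per library total was 44.2 (95% exact binomial interval 27.0 to 77.8, counting error only), and the log2 fold change was 5.25 ± 0.83 (SE). Adam19 passed the filter on low counts through its ILC1 libraries, since 0 of the 3 cNK libraries reached the minimum. Without cNK pool 2 its edgeR adjusted p was 0.0635 (log2 fold change 5.44), which takes it out of the called genes. Over the other alternatives it stayed called, with an adjusted p down to 1.39e-14 (DESeq2). Some of these fits were close to the threshold, with edgeR adjusted p of 0.0492 without ILC1 pool 2 and 0.0405 without cNK pool 1. Unlike Mmp9 and Adam8, it was highest in ILC1 pool 3, the library with the most counts of markers of macrophages, monocytes and dendritic cells.

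The 300 bases around the start site of Adam8 and of Adam19 are shown because both genes were among those called higher in ILC1. They come from RefSeq (GRCm38.p6), and each runs from 250 bases before the start to 50 bases after it, 5′ to 3′ on the gene's strand. The first is chr7:139992513-139992812 (minus strand) and the second chr11:46055734-46056033 (plus strand), the 1 of 3 windows listed for Adam19 that held motif matches. Capitals mark matches to the AP-1 motif TGANTCA, the T-box motif AGGTGTNA or an NF-kB motif of 10 bases, on either strand.
Adam8: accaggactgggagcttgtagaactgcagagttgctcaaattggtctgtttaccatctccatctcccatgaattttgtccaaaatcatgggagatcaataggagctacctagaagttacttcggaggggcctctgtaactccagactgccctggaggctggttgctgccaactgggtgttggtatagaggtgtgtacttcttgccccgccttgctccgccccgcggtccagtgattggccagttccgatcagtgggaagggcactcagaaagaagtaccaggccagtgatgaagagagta
Adam19: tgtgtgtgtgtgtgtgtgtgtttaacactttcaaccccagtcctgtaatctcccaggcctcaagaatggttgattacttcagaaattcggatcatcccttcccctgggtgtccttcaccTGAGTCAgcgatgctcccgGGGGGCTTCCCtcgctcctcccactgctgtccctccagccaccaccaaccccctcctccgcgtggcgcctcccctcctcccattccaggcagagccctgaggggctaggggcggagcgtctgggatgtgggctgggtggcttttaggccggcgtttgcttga
The Adam19 window holds the letters TGAGTCA, a match to AP-1, from base -131, and 2 overlapping matches to NF-kB from bases -112 and -111. The Adam8 window holds no match to any of the 3 motifs. Of 32851 windows of this length over the genome, 7.81% held the AP-1 motif, 5.8% the NF-kB motif and 3.03% the T-box motif. Windows were found for 7 of the 8 members, and those of Adam10, Adam17, Timp1, Timp2 and Reck and the other 2 of Adam19 held none of the 3 motifs. A match says only that these letters are present.

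Adam10 and Adam17 are the 2 main sheddases of lymphocytes, known for the cleavage of Notch (Adam10) and of pro-Tnf (Adam17). Adam10 (chromosome 9, 70678997 to 70780229, plus strand) stood at 168, 96.3 and 87.4 CPM in the ILC1 pools, against 110.3, 56.6 and 56.0 CPM in the cNK pools. Adam17 (chromosome 12, 21323509 to 21373632, minus strand) stood at 95.9, 49.4 and 49.97 CPM in the ILC1 pools, against 90.5, 47.3 and 49.5 CPM in the cNK pools. In both populations pool 1 was well above pools 2 and 3 for both genes, and the populations overlapped. The log2 fold change was 0.66 ± 0.37 (SE) for Adam10 and 0.06 ± 0.37 (SE) for Adam17, and neither was called. Adam17 shares bases of 1 exon with Iah1 on the opposite strand, which had 3733 counts over the 6 libraries, so that its reads there are uncertain.

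The spread of Adam10 and Adam17 was mostly shared within a library. The log2 ratio of Adam10 to Adam17 counts, which does not depend on any scaling of libraries, was 0.81, 0.96 and 0.81 in the ILC1 pools, against 0.28, 0.26 and 0.18 in the cNK pools. The ratio was higher in every ILC1 library than in any cNK library, with means of 0.86 ± 0.09 in ILC1 and 0.24 ± 0.06 in cNK (SD, n = 3 each). These are the same libraries as those behind the choice of the panel, and the difference of 0.62 was not tested. Pool 1 was the highest ILC1 library for 6 of the 8 members and the highest cNK library for 5 of the 8. Mitochondrial genes made up 1.38, 2.25 and 6.53% of counts in the ILC1 pools, against 3.15, 12.7 and 10.3% in the cNK pools, so that pool 1 had the lowest share in both populations. With this share as a covariate, the log2 fold change was 0.07 for Adam10 and -0.50 for Adam17, and neither was called.

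Of the inhibitors, Timp2 and Reck were lower in every ILC1 library than in any cNK library, and Timp1 was barely counted. Timp2 is a secreted inhibitor that, with Mmp14, also takes part in the activation of pro-Mmp2 (chromosome 11, 118301069 to 118355740, minus strand). It stood at 65.4, 61.5 and 57.5 CPM in the ILC1 pools, against 133.8, 93.8 and 84.4 CPM in the cNK pools. Its log2 fold change of -0.76 ± 0.22 (SE) was not called. It was called with upper-quartile factors (edgeR adjusted p = 0.0466), with the mitochondrial share as covariate (0.0218) and by the DESeq2 Wald test (0.0158), and over all alternatives its adjusted p ran from 0.0158 to 0.299.

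Reck, a membrane-anchored inhibitor of Mmp9, Mmp2, Mmp14 and Adam10, lies on chromosome 4, 43875530 to 43944806 on the plus strand. It stood at 9.19, 9.02 and 6.59 CPM in the ILC1 pools, against 22.2, 18.2 and 22.6 CPM in the cNK pools. The means were 8.27 ± 1.46 CPM in ILC1 and 20.99 ± 2.45 CPM in cNK, with a log2 fold change of -1.34 ± 0.22 (SE). Leaving out ILC1 pool 2 gave an edgeR adjusted p of 0.0525 and leaving out cNK pool 3 one of 0.0960, so that either library takes it out of the called genes. Over the other alternatives the adjusted p stayed under the threshold, down to 2.05e-07 (DESeq2).

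Timp1, which binds Mmp9 both as the precursor and as the active enzyme, lies on the X chromosome, 20870166 to 20874735 on the plus strand, with all its exons inside Syn1 on the opposite strand. It had 0, 4 and 10 counts in the ILC1 pools and 1, 7 and 0 counts in the cNK pools, or at most 0.360 CPM in ILC1 and 0.318 CPM in cNK. It did not pass the filter on low counts and has no fold change here. Syn1 itself had 8 counts over the 6 libraries.

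Over all tested genes, 15% had all 3 ILC1 libraries above all 3 cNK libraries and 9.06% had all 3 below. Of the 7 members tested, 3 were above (Mmp9, Adam8 and Adam19) and 2 below (Timp2 and Reck). Nothing is read from these counts either.

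**Figure D2:**
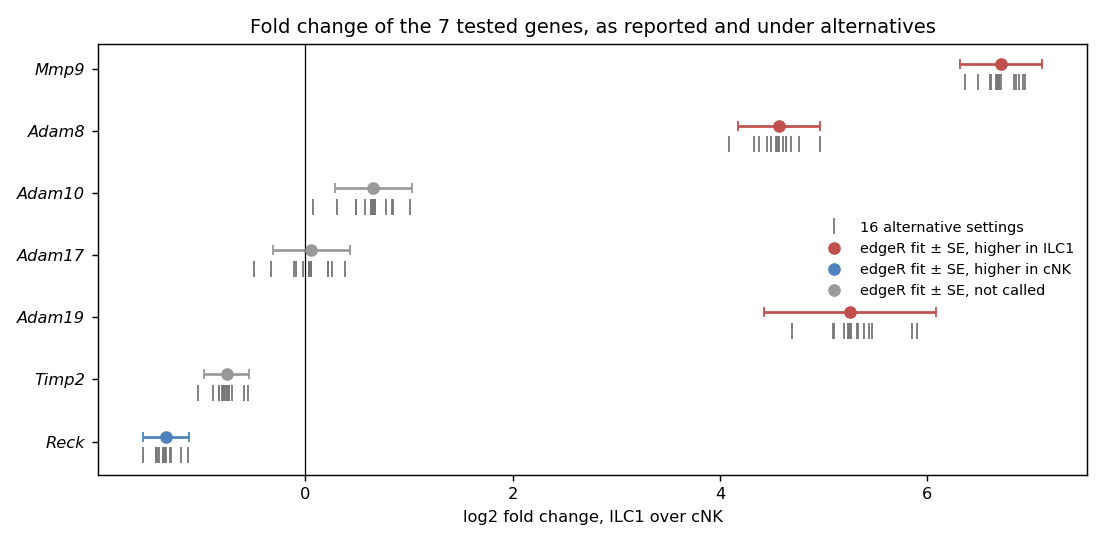
Log2 fold change of ILC1 over cNK (horizontal axis) for the 7 tested genes. Circles with whiskers are the edgeR estimate ± SE, coloured by call, and grey ticks are the estimates under the 16 alternative settings. The ticks of Mmp9 run from 6.37 to 6.94 and those of Reck from -1.56 to -1.14, while those of Adam17 fall on both sides of 0.

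Within a library, Mmp9 and the inhibitors Reck and Timp2 stood in opposite order in the 2 populations. The log2 ratio of Mmp9 to Reck counts was 4.57, 3.80 and 4.11 in the ILC1 pools, against -4.30, -3.67 and -3.58 in the cNK pools. For Mmp9 to Timp2 it was 1.74, 1.03 and 0.98 in the ILC1 pools, against -6.89, -6.04 and -5.48 in the cNK pools. Mmp9 thus had more counts than either inhibitor in each ILC1 library and fewer than either in each cNK library. For Adam8 to Adam10 the log2 ratio averaged -1.22 ± 0.20 in ILC1 and -5.19 ± 0.20 in cNK (SD, n = 3 each), so that Adam10 had more counts than Adam8 in all 6 libraries. The ratio of Timp2 to Reck differed less, at 2.91 ± 0.19 in ILC1 and 2.29 ± 0.35 in cNK. The ratio of Mmp9 to Adam8 was 1.60 ± 0.20 in ILC1 and -0.42 ± 0.999 in cNK, where both genes were low.

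**Figure D3:**
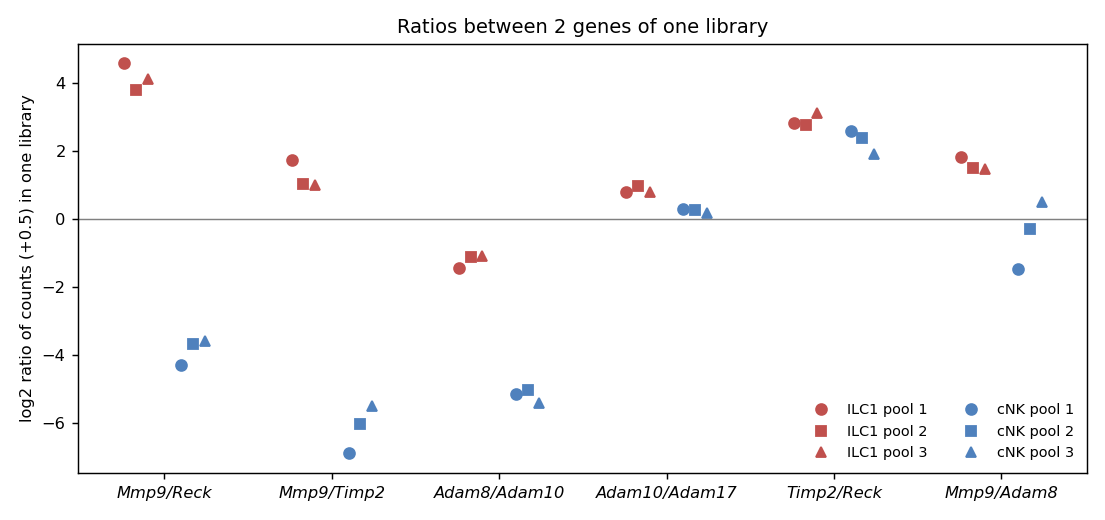
Log2 ratio of the counts of 2 genes in the same library (vertical axis), with 0.5 added to each count, for 6 pairs of members in the 3 ILC1 and 3 cNK libraries. The ratios of Mmp9 to Reck and to Timp2 are above 0 in the ILC1 libraries and below 0 in the cNK libraries, and the ratio of Adam10 to Adam17 is a little higher in each ILC1 library than in any cNK library.

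Levels of different genes were compared as CPM per kilobase of merged exons in GENCODE M21. In ILC1 the order was Mmp9 (43.2 ± 16.2 CPM per kb, SD, n = 3), Adam10 (23.9 ± 8.98), Timp2 (15.8 ± 1.01), Adam8 (10.6 ± 2.38), Adam17 (9.10 ± 3.73), Reck (1.73 ± 0.305), Adam19 (1.17 ± 0.208) and Timp1 (0.186 ± 0.205). The neighbours Mmp9 and Adam10, Adam8 and Adam17, and Reck and Adam19 overlapped over the 3 pools, although Mmp9 was above Adam10 within each pool. In cNK the order was Timp2 (26.7 ± 6.74), Adam10 (15.1 ± 6.35), Adam17 (8.73 ± 3.40), Reck (4.39 ± 0.514), Adam8 (0.442 ± 0.205), Mmp9 (0.413 ± 0.107), Timp1 (0.133 ± 0.196) and Adam19 (0.0295 ± 0.0263). The first 3 of these overlapped with their neighbours, as did the last 4, and Reck stood apart from both sides. Of the summed level of the 8 genes per kilobase, Mmp9 made up 43.4, 39.3 and 38.4% in the ILC1 pools, against 0.417, 0.843 and 1.16% in the cNK pools. Timp2 made up 11.8, 17.4 and 17.6% in the ILC1 pools, against 45.7, 51.1 and 47.6% in the cNK pools. Adam10 held a more even share, at 21.2 to 24.0% in ILC1 and 24.4 to 29.9% in cNK.

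**Figure D4:**
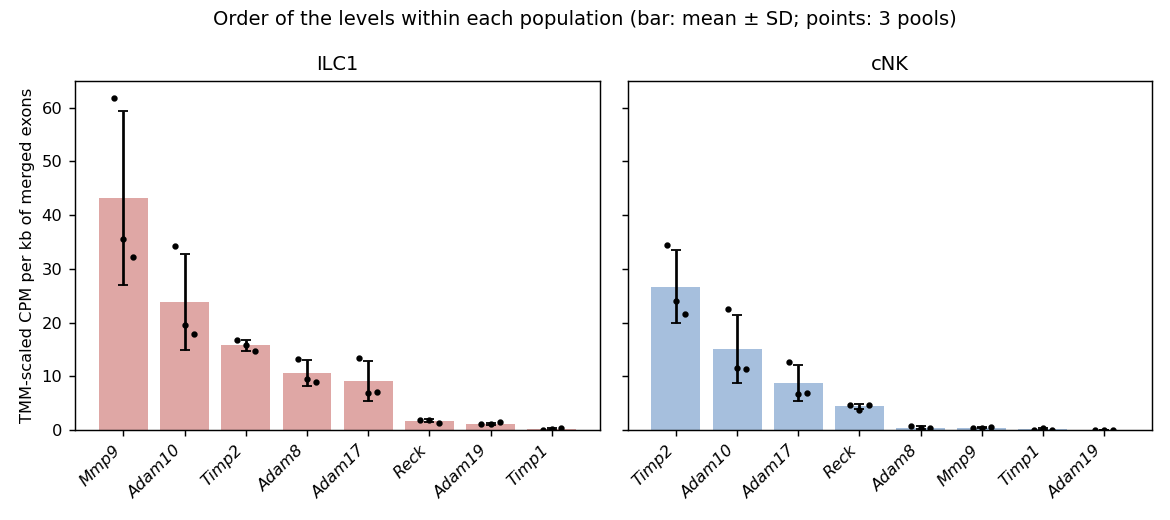
Mean level ± SD of the 8 genes in CPM per kilobase of merged exons (vertical axis, from 0), in descending order within ILC1 (left) and cNK (right), with the 3 pools as points. Mmp9 leads in ILC1 at 43.2 CPM per kb and is near 0 in cNK, where Timp2 leads at 26.7 CPM per kb.

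Pearson r of log2 CPM with each member was taken among 8562 genes at a mean of at least 10 CPM. It gave the genes that rose and fell most closely with each member over the 6 libraries. For Mmp9 these were Slc2a8 (r = 0.999), Lilr4b (0.999), Zfp683 (0.999), Mia2 (0.998) and Gm36723 (0.998). For Adam8 they were Pi4k2a and Gpnmb, for Adam10 Zfp384 and Zfp777, for Adam17 Edem3 and Ttc13, for Adam19 Lpcat2 and Rnase6, for Timp2 Cers2 and Slc16a1, and for Reck Rap2b and Agpat3, each with r between 0.992 and 0.998. For Timp1, which was close to 0 counts throughout, they were Tmem9 and Dnal4 (r = 0.981 and 0.979). With 6 libraries in 2 populations such values are common, and 282 of the 8562 genes had r over 0.95 with Mmp9. A high r does not mean a difference of like size. Mean CPM in ILC1 and cNK was 35.6 and 16.4 for Slc2a8, 79.7 and 16.3 for Lilr4b and 65.8 and 1.21 for Zfp683. It was 115 and 82.8 for Mia2 and 277 and 17.7 for Gm36723, against 153 and 1.46 for Mmp9.

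Other genes of the same system were taken from 8 lists, with calls from the same edgeR fit. The lists were chosen with earlier results of these data known, so their calls and adjusted p are a description and not independent tests. Beside their counts stand the shares of all tested genes called, 4.07% higher in ILC1 and 1.69% higher in cNK. No other matrix metalloproteinase was called. Of 22 listed, 17 were in the table and 7 were tested, with 0 called by edgeR, by DESeq2 or by limma-voom, while 1 was higher in ILC1 and 0 in cNK at an unadjusted edgeR p under 0.05. The 2 of highest mean level were Mmp12, the macrophage elastase, and Mmp14, a membrane protease that activates pro-Mmp2. Mmp12 stood at 3.05, 1.16 and 16.6 CPM in the ILC1 pools, against 3.15, 5.90 and 3.12 CPM in the cNK pools, and Mmp14 at 1.81, 2.05 and 6.05 CPM in the ILC1 pools, against 0.608, 2.86 and 2.04 CPM in the cNK pools. For both, ILC1 pool 3 was the highest of the 6 libraries, and without it the log2 fold change of Mmp12 was -0.94 rather than 0.77. With the mitochondrial share as covariate Mmp14 was called higher in ILC1 (log2 fold change 2.32, edgeR adjusted p = 0.0242, the lowest of a range up to 0.9497).

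Among the other Adam genes, Adam12, or meltrin alpha, was the 1 of 4 tested that was called, and it was higher in ILC1. It had 79, 55 and 51 counts in the ILC1 pools and 0, 1 and 1 counts in the cNK pools. The ratio of summed counts per library total was 95.7 (95% exact binomial interval 26.1 to 796, counting error only), and its edgeR adjusted p was 0.00504. Like Adam19, it passed the filter through the ILC1 libraries. Of 8 Adamts genes tested, which encode secreted relatives with thrombospondin motifs, 2 were higher in ILC1 and 0 in cNK. Adamts17 had 24, 22 and 33 counts in the ILC1 pools and 1, 2 and 4 counts in the cNK pools (log2 fold change 3.24 ± 0.62, edgeR adjusted p = 0.0271). Adamts9 had 48, 32 and 47 counts in the ILC1 pools and 1, 4 and 6 counts in the cNK pools (log2 fold change 3.29 ± 0.67, edgeR adjusted p = 0.0347). Leaving out any 1 library other than ILC1 pool 3 ended both calls, with adjusted p of 0.0632 to 0.127. Adamts14, named after its values were seen as the Adamts gene with the most counts, was not called, at 179.6, 76.9 and 54.8 CPM in the ILC1 pools, against 257, 105 and 152 CPM in the cNK pools.

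Of 3 other inhibitors tested, edgeR and limma-voom called 0 and DESeq2 called 1, with 2 lower in ILC1 at an unadjusted edgeR p under 0.05. Timp3, an inhibitor bound to the matrix, stood at 16.3, 27.8 and 98.3 CPM in the ILC1 pools, against 29.2, 113.5 and 85.8 CPM in the cNK pools. Kidney epithelial markers, all 9 of them with counts in both populations, made up 0.0876, 0.0268 and 0.277% of counts in the ILC1 pools, against 0.0943, 0.298 and 0.268% in the cNK pools. Timp3 and this share were both highest in ILC1 pool 3 and cNK pools 2 and 3, and the part of the epithelial share in the level was not tested. Pzp, a protease inhibitor of the alpha-2-macroglobulin family, was at 0 to 0.239 CPM in ILC1, against 1.04 to 1.95 CPM in cNK, and was called by DESeq2 (adjusted p = 0.00399, the lowest of a range up to 0.316).

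Of 12 tested partners of Adam10 and Adam17 and their convertases, 2 were higher in ILC1 and 0 in cNK. Tspan14, a tetraspanin of the group that escorts Adam10, stood at 172, 156 and 122 CPM in the ILC1 pools, against 75.3, 59.2 and 62.3 CPM in the cNK pools (log2 fold change 1.20 ± 0.20, edgeR adjusted p = 0.0174). Rhbdf2, which encodes iRhom2, the escort of Adam17 to the cell surface, stood at 22.5, 11.0 and 13.9 CPM in the ILC1 pools, against 5.37, 3.36 and 3.77 CPM in the cNK pools (log2 fold change 1.92 ± 0.35, edgeR adjusted p = 0.0227). Both were higher in all 3 ILC1 libraries, while Adam17 itself overlapped. The call of Tspan14 was lost without ILC1 pool 2 (adjusted p = 0.0670), cNK pool 2 (0.0867) or cNK pool 3 (0.124), and that of Rhbdf2 without cNK pool 1 (0.0513), cNK pool 2 (0.0931) or cNK pool 3 (0.130), with the mitochondrial share as covariate (0.0757), and when ILC1 pool 3 and cNK pool 2 were both left out (0.0547).

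Of 27 tested genes for proteins known to be shed by Adam10 or Adam17, 10 were called higher in ILC1 and 1 higher in cNK. Over all tested genes, 4.07% were called higher in ILC1 and 1.69% higher in cNK. The median log2 fold change of the list was 0.94, against 0.01 over all tested genes. No set test was run, and nothing is read from these values, because the list was chosen with earlier results known. Csf1r and Mertk of this list are also among the markers of macrophages, monocytes and dendritic cells described below. Those markers made up 0.273 to 0.618% of counts in ILC1, against 0.147 to 0.158% in cNK. The part of such cells in the levels of this list was not tested. Tgfa, a ligand of the epidermal growth factor receptor, stood at 25.7, 15.8 and 13.4 CPM in the ILC1 pools, against 2.40, 2.81 and 2.91 CPM in the cNK pools (log2 fold change 2.75 ± 0.31, edgeR adjusted p = 0.00388). Icosl, the ligand of the costimulatory receptor ICOS, stood at 49.2, 34.0 and 27.6 CPM in the ILC1 pools, against 9.31, 7.35 and 8.89 CPM in the cNK pools (log2 fold change 2.12 ± 0.27, edgeR adjusted p = 0.00579). Tnf and Tnfsf11, both ligands of the Tnf family, had log2 fold changes of 3.19 and 3.17. Leaving out cNK pool 2 brought the 10 calls to 5, and leaving out cNK pool 3 brought them to 4.

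Of 16 tested surface partners of Mmp9 and genes of plasminogen activation, 0 were higher and 3 were lower in ILC1 than in cNK. At an unadjusted edgeR p under 0.05, 2 were higher and 6 were lower in ILC1 than in cNK. Higher in ILC1, DESeq2 called 2 and limma-voom 0. Itga4 and Itgam, integrin chains that can dock Mmp9 on leukocytes, had log2 fold changes of -2.13 and -3.62, and Itgam is also a marker of mature cNK. Anxa2, which with S100a10 binds plasminogen activators, was at 742 to 977 CPM in ILC1, against 1633 to 1810.4 CPM in cNK (log2 fold change -1.01 ± 0.19, edgeR adjusted p = 0.0270). Its call was lost with library totals alone (adjusted p = 0.0726) and without ILC1 pool 1 (0.109), ILC1 pool 3 (0.0585), cNK pool 2 (0.0997), cNK pool 3 (0.137) or both ILC1 pool 3 and cNK pool 2 (0.143), and the call of Itgam without cNK pool 3 (0.0600). Of 9 cathepsin genes and heparanase tested, 1 was higher in ILC1 and 0 in cNK. It was Ctsz, a lysosomal cathepsin, at 149, 149 and 173 CPM in the ILC1 pools, against 72.0, 80.3 and 77.2 CPM in the cNK pools (log2 fold change 1.04 ± 0.16, edgeR adjusted p = 0.0130), and without any 1 cNK pool its adjusted p was 0.0513 to 0.0990.

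**Figure D5:**
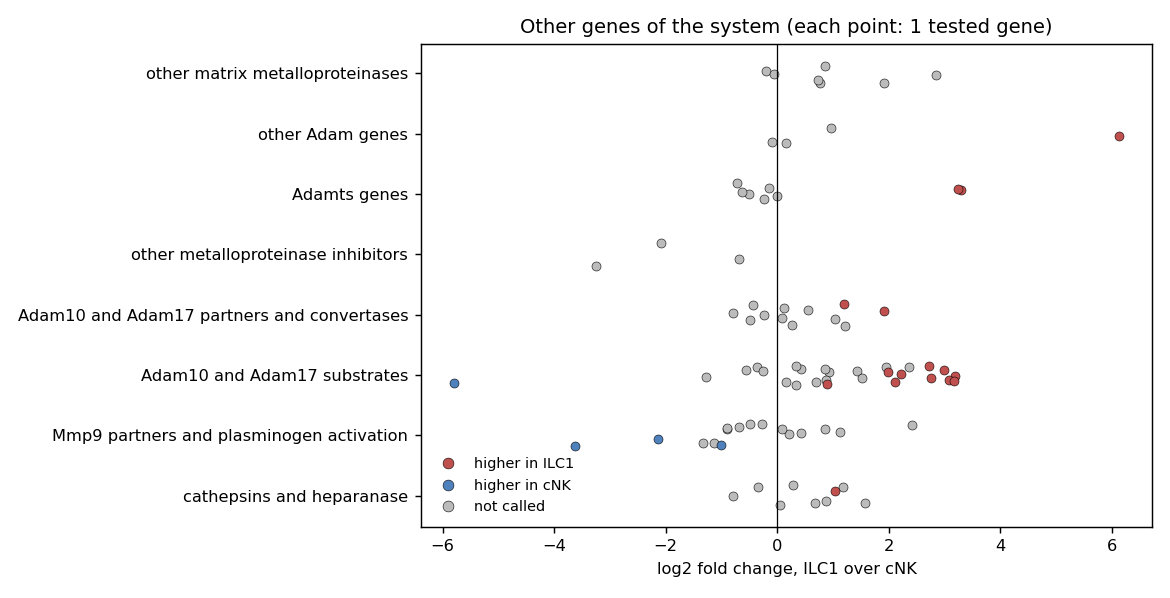
Log2 fold change of ILC1 over cNK (horizontal axis) for the tested genes of 8 lists of related genes (rows). Each point is 1 gene, red where called higher in ILC1, blue where called higher in cNK and grey where not called, and the height within a row is arbitrary. The rightmost point is Adam12, at 6.13.

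Mmp9 and Adam8 are also genes of neutrophils and macrophages, and markers of other cells were measured in the same libraries. The 12 neutrophil markers together made up 3.58e-04, 9.18e-05 and 0.00246% of counts in the ILC1 pools, against 4.59e-04, 0.00128 and 0.00591% in the cNK pools. In cNK, the order of the pools by this share was also their order by Mmp9, whereas in ILC1 the share was highest in pool 3 and Mmp9 in pool 1. Only 4 of the 12 were tested, of which 0 were called by edgeR and 0 had an unadjusted p under 0.05 in either direction. Camp had 0 counts in every ILC1 library, and its 62 counts in cNK were all in pool 3. Markers of macrophages, monocytes and dendritic cells numbered 17, all with counts in both populations. Of these, 6 were called higher in ILC1 and 1 (Ly6c2) in cNK, beside 4.07% and 1.69% of all tested genes. The 17 markers made up 0.303, 0.273 and 0.618% of counts in the ILC1 pools, against 0.158, 0.148 and 0.147% in the cNK pools. Every ILC1 library was thus above every cNK library. Adam19 was highest in ILC1 pool 3, the library with the highest share, and Mmp9 and Adam8 were lowest there. Without both ILC1 pool 3 and cNK pool 2, the log2 fold change was 6.85 for Mmp9, 4.57 for Adam8 and 5.27 for Adam19. The 6 B cell markers made up 0.0571 to 0.0734% of counts in ILC1, against 0.0133 to 0.0193% in cNK. Of the 4 tested, 1 (Ighm) was called higher in ILC1, beside 4.07% of all tested genes. The 9 T cell markers made up 0.0335 to 0.0520% of counts in ILC1, against 0.0171 to 0.0193% in cNK, and edgeR called 0 of them, with 2 higher in ILC1 and 0 in cNK at an unadjusted p under 0.05. The shares of B cell and T cell markers were thus both higher in every ILC1 library than in any cNK library. The part of any of these cells in the levels of Mmp9, Adam8, Adam19 and Adam12 was not tested.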

How the data were processed

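RNA from 3 ILC1 and 3 cNK pools was sequenced, and the authors deposited raw read counts for each gene together with the mean count of each population, an averaged signal not used here. The submitters' processing notes list STAR 2.6.1, Trimmomatic 0.38, DESeq2 1.30.0, DESeq and R 4.03, with GRCm38. No counting program, annotation or strand setting is given in the sources used here. The 1 entry with no gene identifier was left out, and no gene had under 5 counts in all 6 libraries together. Of 23841 identifiers, 23798 matched GENCODE M21, which gave positions and exon lengths.

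Counts were tested over the whole table with edgeR 4.0.16 in R 4.3.3 (filterByExpr by population with a minimum count of 10, TMM, robust quasi-likelihood fit on population alone, Benjamini-Hochberg adjustment at 0.05). The procedure was tested on simulated data, and no 2 libraries were identical. Ratios within a library used counts + 0.5, and likeness used log2 of CPM + 0.5. Alternatives were upper-quartile factors, DESeq2 size factors, library totals, DESeq2 1.42.0, limma-voom (limma 3.58.1), no filter, at least 1 CPM in 3 libraries, the mitochondrial share as covariate, a block for pool number, and leaving out each library or both ILC1 pool 3 and cNK pool 2. From each list the text names up to 4 called genes per direction by adjusted p, or the 2 of highest level where none was called. A gene that this rule names is not reported here. The members and lists were chosen with earlier results of these data known. Alternatives for single list genes were added after their values were seen. Protein sequences were not used here.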

Additional observations from a re-analysis of the deposited data

How the results depend on the processing

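Over 18 counts (the panel and 8 lists, each in both directions), 248 of 288 count and alternative pairs stayed within 1.5 times the reported count. Many of these 248 are pairs in which both counts were 0, as for the other matrix metalloproteinases in cNK. The 1.5-fold mark does not apply to such pairs, so the number overstates how well the calls held. Mmp9 and Adam8 were called higher in ILC1 under all 16 alternatives, with log2 fold changes of 6.37 to 6.94 and 4.08 to 4.96. Adam17, which was never called, had a negative log2 fold change with upper-quartile factors (-0.026), with the mitochondrial share as covariate (-0.50) and without ILC1 pool 1 (-0.33), cNK pool 2 (-0.11) or cNK pool 3 (-0.09), and it ran from -0.33 to 0.38 over the fits without 1 library. Over those fits Mmp12 ran from -0.94 (without ILC1 pool 3) to 1.28. Leaving out ILC1 pool 3 together with cNK pool 2 gave -0.59 for Mmp12, and the log2 fold change of Timp3 was 0.63 with the mitochondrial share as covariate. Library totals alone moved the median log2 fold change of all genes by 0.22, and there Timp2 had -0.55 and Reck -1.14. The causes of these changes were not tested.

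Members called higher in cNK numbered 2, with Timp2 beside Reck, with upper-quartile factors, by DESeq2 and with the mitochondrial share as covariate, against 1 as reported. By DESeq2, 4 partners of Adam10 and Adam17, 2 partners of Mmp9 and 3 cathepsins or heparanase were higher in ILC1 and 1 other inhibitor was higher in cNK. With the mitochondrial share as covariate, 1 other matrix metalloproteinase, 1 Adam partner and 3 cathepsins or heparanase were higher in ILC1 and 1 Adam partner was higher in cNK. At least 1 CPM in 3 libraries left 1 Adamts gene, with fewer genes tested. When ILC1 pool 3 and cNK pool 2 were both left out, 0 Adamts genes, 1 Adam partner and 0 cathepsins or heparanase were higher in ILC1.

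Leaving out each library in turn gave 2 to 3 members higher in ILC1 and 0 to 1 higher in cNK. Higher in ILC1 were 0 to 2 Adamts genes, 0 to 2 Adam partners and 4 to 9 genes for shed proteins. So were 0 to 1 Mmp9 partners and 0 to 2 cathepsins or heparanase. Higher in cNK were 0 to 1 Adam partners and 1 to 3 Mmp9 partners. Over all tested genes, leaving out each library gave 214 to 695 higher in ILC1 and 93 to 672 higher in cNK, against 657 and 273. DESeq2 gave 1153 and 693.

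The deviations of same-numbered pools from their population means correlated at 0.63, -0.12 and 0.07. ILC1 pool 3 correlated best with cNK pool 2 (0.65). The labels state no pairing. These correlations cannot decide whether same-numbered pools share mice, since library makeup, such as the mitochondrial share, also differed between pools. With pool number as a replicate block, 4 members were higher in ILC1 (Adam10 added, log2 fold change 0.67) and 2 in cNK (Timp2 added, -0.73). The block also gave 4 Adam partners, 1 Mmp9 partner and 2 cathepsins or heparanase higher in ILC1 and 5 Mmp9 partners higher in cNK, and over all genes 1107 and 675. Depth limits Timp1 and the cNK values of Adam19 and Adam12, which rest on at most 10 counts a library.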
